A study of Drosophila melanogaster with 2 samples.

Results

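Binding of Araucan was examined at 10 genes of the hemocytes and the basement membrane, out of 13945 protein-coding genes on the assembled chromosome arms. The genes were chosen by name, with earlier results of these data known. They were the regulators srp, gcm, gcm2 and lz, the hemocyte products Hml and He, and the matrix genes Pxn, vkg, Col4a1 and Ppn. The samples were whole Drosophila melanogaster embryos aged 0 to 24 h that carried a transgene for ara-eGFP, Araucan joined to a green fluorescent tag, in a strain labelled ara-GFP, and chromatin was precipitated through the fluorescent tag (ChIP-seq). There was 1 group with 2 biological replicates and no untagged or untreated group, so the comparisons are between the 10 genes, all other genes and the replicates. The label gives whole organisms as the cell type, and peak lists hold no expression values with which cell type markers could be checked. A site bound weakly in many cells and a site bound strongly in few cells cannot be told apart in such material.

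Hemocytes are the blood cells of the fly, which engulf dying cells and microbes and, in the embryo, lay down much of the basement membrane as they migrate. Serpent starts their development, the Gcm proteins direct the macrophage-like plasmatocytes and Lozenge the crystal cells. Basement membranes are sheets of laminin, collagen IV, perlecan and other proteins that line tissues. Araucan is a homeodomain factor of the Iroquois complex, best known for patterning the wing, the eye and sensory organs.

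A locus was taken as the gene extended by 5 kb at either end. Peaks came from the authors' conservative list of 4716 peaks, 4706 of them on the arms, and each was placed by its summit, the position the authors' files give for the top of the peak. Of the 10 loci, 5 held a summit (srp, gcm2, lz, Hml and vkg), and 43.7% of all protein-coding loci did. The other 5 (gcm, Pxn, Col4a1, Ppn and He) held none. The 5 loci held 7 summits, and the nearest protein-coding transcription start site (TSS) was that of one of the 10 genes at 2 of them, in srp and lz. The strongest of the 7 reached a signal of 99.2 in the authors' units.

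The sequence under these summits differed in composition and in recognisable motifs, and the strongest window of each bound locus that lay clear of annotated untranslated regions is shown so that they can be compared. Each runs along the plus strand from 50 bp before the summit to 50 bp past it, from the RefSeq copy of the release 6 assembly, which has the same coordinates as dm6. Capitals mark TAACA, a pentamer bound by Iroquois proteins, AGATAA, a site of the GATA class to which Serpent belongs, and TAATTA, a core shared by many homeodomain factors. The windows are chr3R:15984597-15984697 upstream of srp, chr2L:9614054-9614154 past gcm2, chrX:9295714-9295814 in lz, chr3L:13862560-13862660 past Hml and chr2L:5008848-5008948 past vkg.
srp: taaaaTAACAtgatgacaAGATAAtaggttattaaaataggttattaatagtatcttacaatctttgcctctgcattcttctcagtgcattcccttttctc
gcm2: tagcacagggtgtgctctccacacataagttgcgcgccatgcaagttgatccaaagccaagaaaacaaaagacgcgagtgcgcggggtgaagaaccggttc
lz: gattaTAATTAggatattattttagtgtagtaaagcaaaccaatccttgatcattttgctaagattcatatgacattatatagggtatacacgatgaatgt
Hml: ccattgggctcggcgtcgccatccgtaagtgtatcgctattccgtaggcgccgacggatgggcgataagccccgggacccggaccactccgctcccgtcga
vkg: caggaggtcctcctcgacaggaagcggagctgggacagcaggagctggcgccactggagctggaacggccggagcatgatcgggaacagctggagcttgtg

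The srp window held TAACA at position 6 and AGATAA at position 19, counted from its left end on the plus strand, and was the only one of the 7 windows with either. Of all 4706 conservative windows, 24.5% held TAACA and 7.12% held AGATAA on either strand. It also held a direct repeat of 13 bp that begins at positions 23 and 36, aataggttattaa, and 0.531% of conservative windows held a repeat as long. The lz window held TAATTA at position 6, as did 8.73% of all windows. No window at these genes held the Iroquois palindrome ACANNTGT (4.8% of all windows), the GATA site TGATAA (7.93%), the Gcm site ATGCGGG (0.425%) or the Runx site TGTGGT (3.7%). The promoter elements TATCGATA (DREF, 0.935% of all windows) and GGTCACACT (M1BP, 0.404%) were not found either. All motifs were searched on both strands; AGATAA and TGATAA share GATAA and differ in their first letter.

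Base composition varied widely among the windows. The lz window had 27.7% G or C and the srp window 29.7%, whereas the Hml window had 66.3% and the stronger vkg window 65.3%. The 2 gcm2 windows had 53.5% and 48.5%, and the weaker vkg window had 41.6%. The median over the 7 was 48.5%, against 34.7% over all conservative windows.

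**Figure D1:**
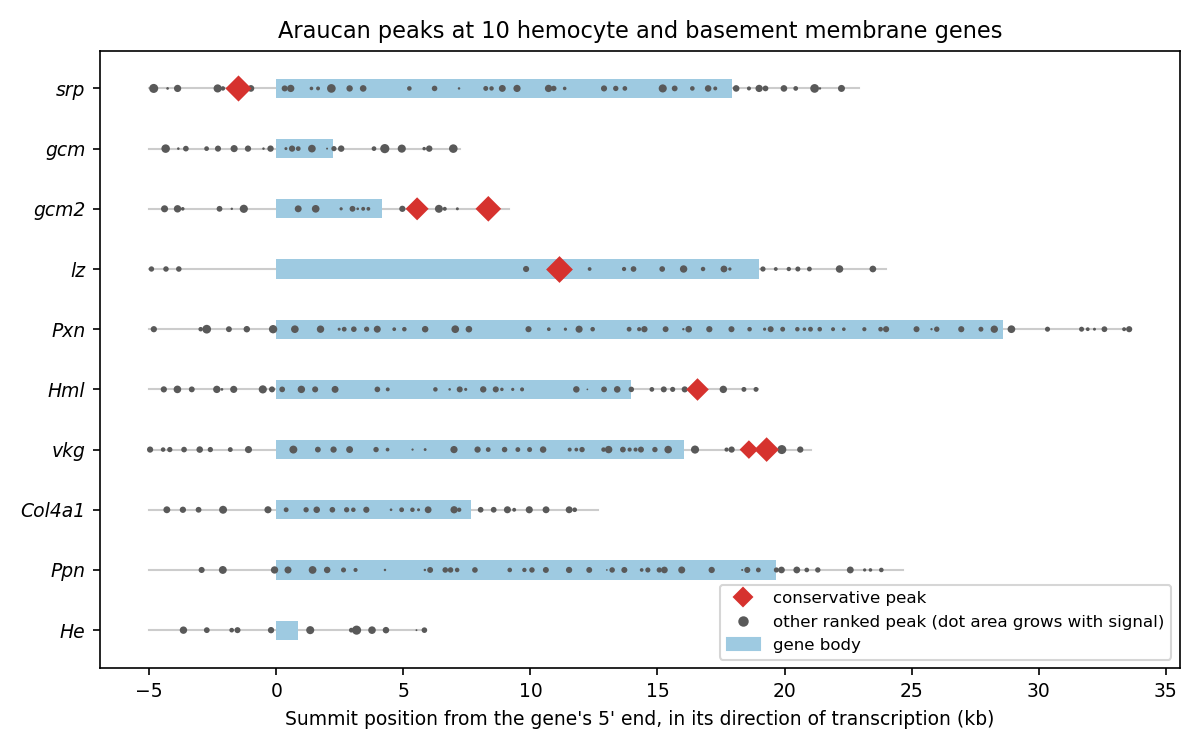
Each row is a gene with 5 kb on each side, drawn from its 5' end in its own direction of transcription (x axis, kb). Red diamonds are summits of the conservative list, grey dots the other peaks of the ranked list with an area that grows with signal, and bars the gene bodies. One red summit lies inside a gene (lz), one lies upstream (srp), and the other 5 lie past the 3' ends of gcm2, Hml and vkg.

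Of the 4 regulators, 3 had a summit in the locus, against 43.7% of all protein-coding genes; srp and lz have loci of 15 kb or more, of which 58.1% were bound, and gcm and gcm2 shorter ones, of which 38.9% were. The gene srp encodes Serpent, a GATA factor needed for embryonic blood and fat body (FBgn0003507, chr3R:15986152-16004085, plus strand). Its peak, chr3R:15984485-15984808, had its summit 1505 bp upstream of the srp TSS, in intergenic sequence and with no closer protein-coding TSS. The signal was 94.4, higher than 48.7% of the conservative peaks. The replicates' own signals were 41.8 in replicate 1 and 53.6 in replicate 2, with summits 0 bp apart. Of the 7 peaks it alone was in the thresholded list of each replicate.

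The gene lz encodes Lozenge, a Runx factor of crystal cells and of the eye (FBgn0002576, chrX:9284649-9303636, plus strand). Its peak, chrX:9295602-9295925, lay in an intron 11115 bp from the lz TSS, which was the nearest protein-coding TSS. Its signal of 99.2 was the highest of the 7 and above 51.8% of the conservative peaks. It was also the peak on which the replicates differed most, with 30.7 in replicate 1 and 67.3 in replicate 2, a ratio of 2.19. Replicate 2 listed it and replicate 1 did not, although the summits were 4 bp apart.

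The genes gcm and gcm2 encode related transcription factors of plasmatocytes and glia and lie near each other on 2L. At gcm2 (FBgn0019809, chr2L:9608562-9612706, plus strand) both summits lay past the 3' end and nearer to other genes. The peak at chr2L:9616744-9617067 had a signal of 90.9 and its summit 70 bp from the TSS of GlcAT-S, 4200 bp past gcm2. Its replicate signals were 36.1 in replicate 1 and 58.0 in replicate 2. The peak at chr2L:9613942-9614265 had a signal of 73.4 in an intron of Trx2, 1398 bp past gcm2 and 690 bp from the Trx2 TSS. Its replicate signals lay closer together, at 37.7 in replicate 1 and 43.4 in replicate 2. Both peaks were in replicate 2's list alone.

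The gcm locus (FBgn0014179, chr2L:9579498-9581745, minus strand) held no conservative summit. Its highest peak in the full ranked list had a signal of 58.2, above 8.03% of conservative peaks. That peak was intergenic, past the gene and 705 bp from the TSS of Mtpalpha. Its −log10 irreproducible discovery rate, a measure that rises for peaks ranked high in both replicates, was 1.03, and the lowest value among conservative peaks was 2.0. The replicate signals were 19.7 in replicate 1 and 37.3 in replicate 2. It was in the other thresholded list of the series, which adds gcm and brings the count to 6 of the 10 genes, against 47.6% of all protein-coding genes.

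Stronger binding lay between gcm and gcm2, outside both loci; this interval was looked at after the values were seen. The 26.8 kb between them held 2 conservative summits. One had a signal of 350.3, with its summit 16.8 kb from gcm and 2306 bp from the TSS of CG4382. Its replicate signals were 151.1 in replicate 1 and 193.6 in replicate 2, and both replicates listed it. The other had 121.3, with its summit 13.4 kb from each of the 2 genes and 5503 bp from the TSS of CG3841. Its replicate signals were 38.6 in replicate 1 and 90.2 in replicate 2, and it too was in both lists. Both were intergenic, and both were stronger than any of the 7 peaks inside the loci.

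**Figure D2:**
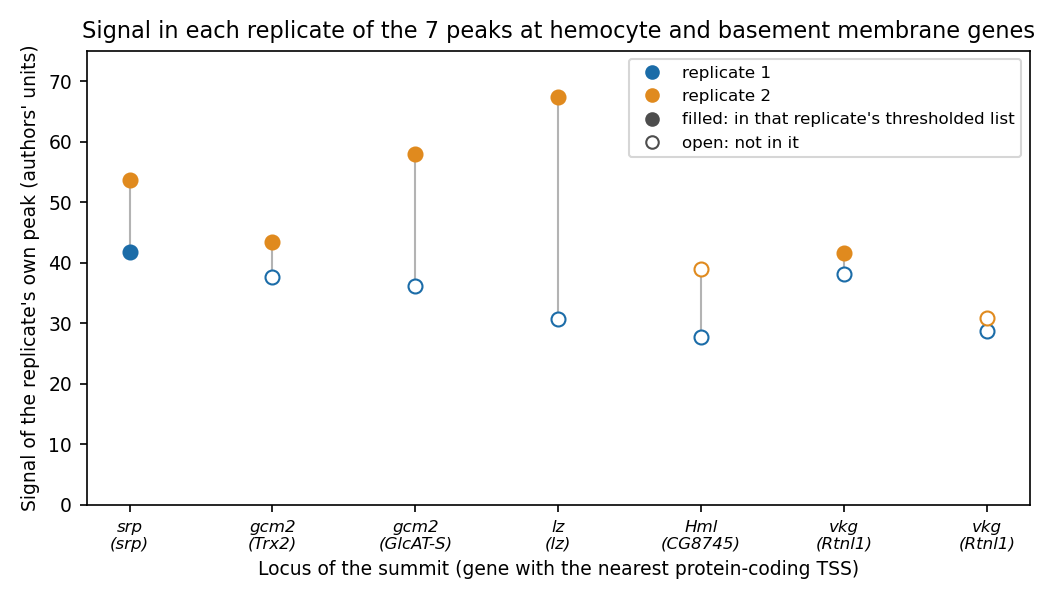
The y axis gives the signal (authors' units) of each replicate's own peak at the 7 conservative summits, named by locus and, in brackets, by the gene with the nearest protein-coding TSS. Filled points are in that replicate's thresholded list and open points are not; replicate 2 is the higher at all 7, and srp alone is filled in both.

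Hml encodes Hemolectin, a large clotting protein used as a plasmatocyte marker (FBgn0029167, chr3L:13846054-13860001, plus strand). Its locus held 1 conservative summit, in the peak chr3L:13862448-13862771, 2609 bp past the 3' end in an intron of CG8745. The signal of 70.6 was above 23.5% of conservative peaks. The replicate signals were 27.7 in replicate 1 and 38.9 in replicate 2, and neither replicate listed it. A weaker ranked peak lay 529 bp upstream of the Hml TSS, with a signal of 46.1 and a −log10 rate of 1.63, at 28.8 in replicate 1 and 23.5 in replicate 2.

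He encodes Hemese, a surface glycoprotein of hemocytes (FBgn0028430, chr2L:13972096-13972947, minus strand). Its locus, the shortest of the 10 at 10.9 kb, had no conservative summit. The highest ranked peak there, 57.4, lay 190 bp from the TSS of NimB4 and 3161 bp from that of He. Its replicate signals were 34.0 in replicate 1 and 22.2 in replicate 2, with a −log10 rate of 1.57. The 5 other protein-coding genes of this locus include NimC1, a phagocytosis receptor of plasmatocytes. The nearest conservative summit was 48.1 kb from He, at NimC3.

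Among the matrix genes 1 of 4 had a summit, against 58.1% of all loci of 15 kb or more, which all 4 have. The gene vkg encodes a collagen IV chain (FBgn0016075, chr2L:5012144-5028191, minus strand), and both of its summits lay past its 3' end at Rtnl1, which encodes a reticulon of the endoplasmic reticulum. The peak chr2L:5008736-5009059 had a signal of 83.9, with its summit in a coding exon of Rtnl1, 822 bp from the Rtnl1 TSS and 18547 bp from that of vkg. The replicates were close, at 38.1 in replicate 1 and 41.6 in replicate 2, and replicate 2 listed it. The peak chr2L:5009433-5009756 had 47.8, the lowest of the 7, with its summit in the Rtnl1 promoter, 125 bp from the TSS. It had 28.7 in replicate 1 and 30.8 in replicate 2, was in neither replicate's list, and the replicates' summits were 183 bp apart, against 0 to 55 bp at the other 6. Its −log10 rate of 2.02 was the closest of the 7 to the lower limit of the conservative list.

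Col4a1 encodes the other collagen IV chain of the fly and is divergently transcribed from vkg (FBgn0000299, chr2L:5029609-5037279, plus strand). The 1.4 kb between the genes held 1 ranked peak and no conservative one. That peak, 326 bp upstream of the Col4a1 TSS, had a signal of 34.8, with 32.8 in replicate 1 and 7.6 in replicate 2. The highest ranked peak of the Col4a1 locus lay 72 bp from a vkg TSS, 2092 bp upstream of Col4a1, with a signal of 43.8. It is shared with the vkg locus, which overlaps that of Col4a1, and had 25.1 in replicate 1 and 21.5 in replicate 2.

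Pxn encodes Peroxidasin, a matrix peroxidase that crosslinks collagen IV (FBgn0011828, chr3L:2601455-2630064, minus strand). It had the longest locus, 38.6 kb, and the most ranked peaks, 58, but no conservative summit. The highest of these had a signal of 52.7, at 14.7 in replicate 1 and 32.0 in replicate 2, with a −log10 rate of 0.33. It was in replicate 2's list, 524 bp from the TSS of MEP-1. Just outside the locus, 5.6 kb from Pxn, a conservative peak of 145.8 had its summit 50 bp from the MEP-1 TSS.

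Ppn encodes Papilin, a matrix glycoprotein made by hemocytes (FBgn0003137, chr3R:28520665-28540324, minus strand). Its highest ranked peak had a signal of 43.1, with 22.5 in replicate 1 and 21.4 in replicate 2. It lay 2102 bp upstream of the Ppn TSS, in a coding exon of another gene. Its −log10 rate was 1.15. The nearest conservative summit was 45.2 kb away, at fkh.

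**Figure D3:**
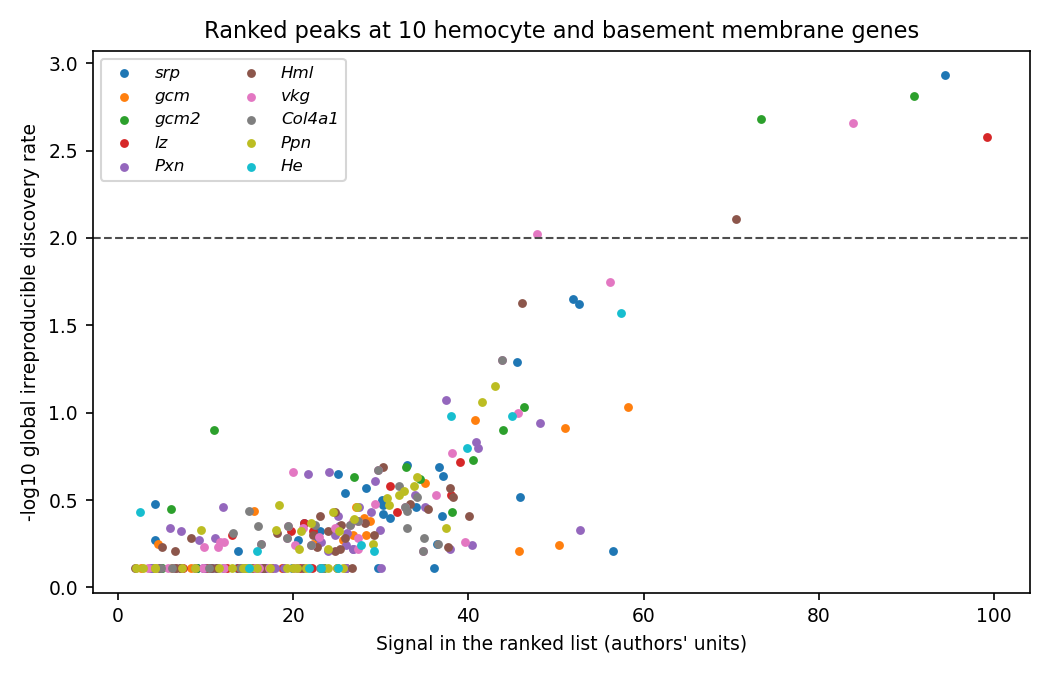
Each point is a peak of the ranked list in 1 of the 10 loci, with its signal (x axis, authors' units) and its −log10 global irreproducible discovery rate (y axis); the dashed line at 2 is the lower limit of the conservative list. The 7 points above the line have signals from 47.8 to 99.2, and all but the vkg point at 47.8 lie at 70.6 or more. The highest signal below the line is 58.2, in gcm. Peaks of srp, gcm, He, Pxn and vkg below the line exceed that vkg point alone. Points in the overlap of the vkg and Col4a1 loci coincide.

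None of the 10 genes had a conservative summit within 500 bp of a TSS of its own, whereas 15.1% of protein-coding genes did. The ranked list, which holds 150015 peaks and no threshold, had peaks there at 8 of the 10, against 82.3% of protein-coding genes, with the highest at Pxn (48.2, 124 bp upstream), vkg (43.8, 72 bp) and Ppn (37.4, 67 bp). Pxn had 30.8 in replicate 1 and 17.8 in replicate 2 at this position. At srp (25.9), gcm (28.1), He (27.8) and Hml (24.8) the peak at the start was weaker still. No ranked peak lay within 500 bp of the gcm2 or the lz TSS. The highest −log10 rate at any of these starts was 1.30, at vkg.

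Ranked peaks were present in all 10 loci. The loci held from 0.69 per kb at lz to 1.80 per kb at gcm, against 1.1 per kb over the arms. The lz locus was the only one of the 10 below 1.1 per kb and the one with the highest conservative signal. Summed over loci there were 319 ranked peaks and 7 conservative ones, against 147187 and 4706 over the arms. Ranked peaks in the overlap of the vkg and Col4a1 loci were counted in each.

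Other ways of counting gave the following shares. With a summit inside the gene there was 1 of the 10, lz, against 12.2% of all protein-coding genes. With the nearest protein-coding TSS to a summit there were 2, srp and lz, against 20.4%. With a summit in the locus that both replicates listed there was 1, srp, against 26.0%. By replicate 1's own list there was 1, srp, against 28.6%, and by replicate 2's there were 5 (srp, gcm2, lz, Pxn and vkg), against 40.4%. Long loci hold more summits, and the 10 had a median locus of 24.9 kb, against 12.2 kb over all genes. Of the 7 loci of 15 kb or more, 4 held a summit, against 58.1% of such loci, and of the 3 shorter ones 1 did (gcm2), against 38.9%. With 10 genes each of these counts is small, and none was tested.

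**Figure D4:**
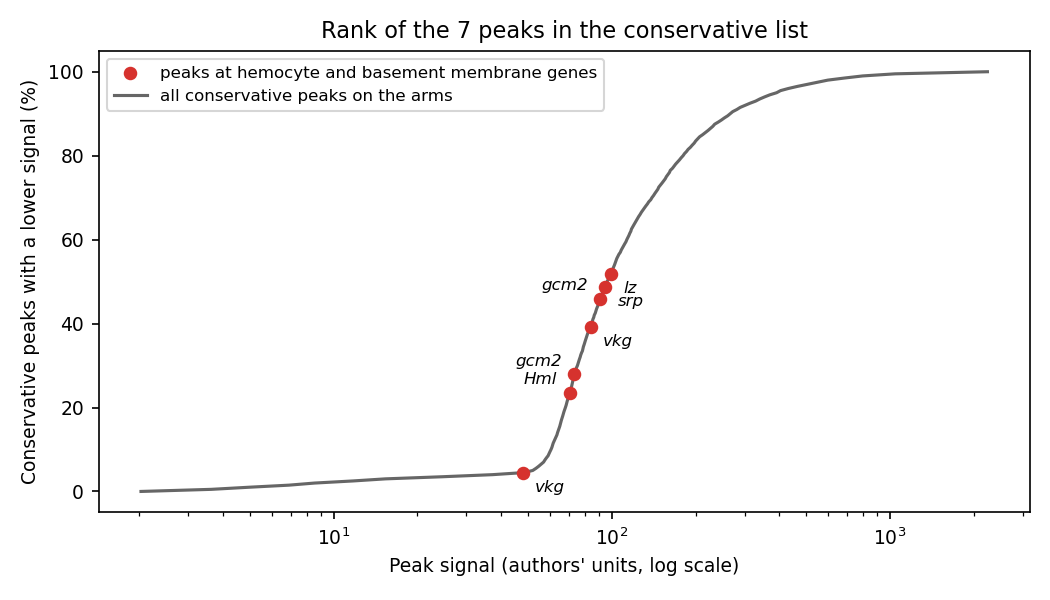
The grey curve gives, for each signal (x axis, authors' units, log scale), the percentage of conservative peaks with a lower signal (y axis), and the red points are the 7 peaks in the loci of the 10 genes. All 7 lie between 47.8 and 99.2, and lz alone lies above the median of the list.

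The 7 peaks were of modest signal. Their median was 83.9, and 6 of the 7 fell below the conservative median of 96.2, in a list that reached 2240. Taking the highest peak of each locus, the median was 90.9 over the 5 bound loci of the 10 genes, against 126.0 over 6090 bound loci of all protein-coding genes. In 63.4% of those 6090 loci the highest peak exceeded 99.2. Of the 7 peaks, 1 was listed in both replicates, 4 in replicate 2 alone and 2 in neither, whereas 44.9% of all conservative peaks were listed in both. Replicate 1's list was the shorter, with 2396 peaks on the arms against 4132 in replicate 2's. The shares of all conservative peaks in replicate 2's list alone or in neither list are not given here. All 7 had a higher signal in replicate 2, with ratios from 1.07 to 2.19, and 77.7% of all conservative peaks had the higher signal in replicate 2 too, with a median ratio of 1.31.

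By position, 5 of the 7 summits lay past the 3' end of the gene, 1 upstream and 1 in the gene body. Over all 10749 pairs of a protein-coding gene and a summit in its locus, 30.8% lay past the 3' end, 40.5% upstream and 28.7% in the gene. By annotation, 2 were in promoters (within 500 bp of any TSS), 3 in introns, 1 in a coding exon and 1 in intergenic sequence. Over all conservative summits these shares were 39.9%, 37.7%, 2.87% and 16.9%.

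Genes that act alongside these 10 held several stronger peaks. Over 8 lists with 41 such genes, 26 had a conservative summit in the locus, or 63.4%, against 43.7% of all protein-coding genes. The median of the highest signal over the 26 was 162.7. The lists were chosen with earlier results of these data known, so the counts are a description only. These shares are not matched for locus length and were not tested. Each list below is to be read beside 43.7% or, for loci of 15 kb or more, 58.1% of all protein-coding loci. All 4 hemocyte transcription factors and cofactors (ush, zfh1, Stat92E and pnt) had a conservative summit, all in loci of 15 kb or more. The zinc finger factor zfh1 had an intronic peak of 369.4, with 136.0 in replicate 1 and 223.8 in replicate 2. Serpent's cofactor u-shaped (ush) had 10 summits, the highest at 262.0, with 105.4 in replicate 1 and 157.8 in replicate 2. The srp peak at 94.4 lay below both.

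Glial genes downstream of gcm were split, with summits at 2 of 4. The RGS protein gene loco reached 146.9 and ttk, a repressor of neuronal fate, 92.2, whereas repo and Eaat1 had none. Of 3 crystal cell genes, which lie downstream of lz, 2 had a summit. The prophenoloxidase gene PPO1 had 206.5 in its locus, nearest to CG14492, peb had 90.4, and PPO2 had none.

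Of 10 plasmatocyte markers and receptors, 4 had a summit. NimC4, an engulfment receptor, reached 435.2 in its promoter, with 201.9 in replicate 1 and 233.5 in replicate 2. The scavenger receptor gene Sr-CI had 225.9 in its locus, nearest to Sr-CIII. The loci of crq, eater, NimC1, drpr, Pvf2 and Glt had none. The NimC4 peak was thus stronger than any in the Hml or He locus.

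Of 10 further basement membrane components, all but SPARC had loci of 15 kb or more, of which 58.1% were bound over all genes. A summit was present at 7 of the 10. The highest were the perlecan gene trol, with 241.9 at a site nearest to boi, and LanA, a laminin chain, with 171.4 in an intron, at 68.6 in replicate 1 and 104.5 in replicate 2. Ndg, Tig and mfas had none. All 4 matrix receptor genes (mys, mew, if and Dg) had a summit, in loci that were also of 15 kb or more. The highest were mew, with 227.9 at a site nearest to CG32639, and if, with 196.9. Dg had 142.1 and mys 60.6, the latter in neither replicate's list. Of 3 genes for collagen maturation and secretion, Tango1, a collagen export receptor, had 453.7 at a site nearest to CG31635, and Plod and PH4alphaEFB had none. Of the matrix proteases and their inhibitor, Timp had 153.9, Mmp2 69.4 and Mmp1 none. The highest summit was nearest to the gene's own TSS in 2 of the 5 bound loci of the 10 genes, srp and lz, in 19 of the 26 bound loci of these lists, and in 34.1% of the 6090 bound loci of all protein-coding genes.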

How the data were processed

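Peak lists were examined from Araucan ChIP-seq of whole embryos, 2 biological replicates in 1 group. Chromatin was sonicated to 200 to 800 bp and precipitated with an anti-GFP antibody, and coordinates are on dm6, per the labels. The aligner and the peak caller, like the number of reads, were not given in the sources used here. No interval could therefore be given. Control libraries are not used here.

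Signal values are as the authors deposited them, on an unstated normalization, and only describe and rank peaks within a list. Uneven depth between replicates would move them. The deposited ranked list also holds a −log10 value, read here as the global irreproducible discovery rate because the deposited score is its scaled form. That list names no replicate for its 2 sets of replicate values. Each was therefore looked up in the replicates' own ranked lists, where an overlapping peak had the identical signal.

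Genes and transcription start sites came from Ensembl release 115 (BDGP6.54), on 6 arms; all 10 genes had the same coordinates in RefSeq. Summits were assigned to every locus that holds them, with promoters reaching 500 bp to each side, and peaks were shared at an overlap of 1 bp. The 9 motifs were counted on both strands in windows of 50 bp to each side of the summit. Each of the 10 genes is named with every summit in its locus or, with none, its highest ranked peak, and in each of 8 context lists the 2 genes of highest signal and those without a summit; other names were chosen after their values were seen. The genes, lists and motifs were chosen with earlier results of these data known. With 1 group no p-value is given. Alternatives were other flanks, lists, thresholds, assignments, overlaps, promoter widths and windows. The tools were numpy 2.4.6, pandas 2.3.3, matplotlib 3.10.9 and Python 3.11.15, and the counting was tested on simulated data.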

Additional observations from a re-analysis of the deposited data

How the results depend on the processing

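The count of bound genes depended on the flank. With no flank, 1 gene, lz, had a summit (1 summit, against 12.2% of all protein-coding genes). With 2 kb there were 3 genes (srp, gcm2 and lz) and 3 summits, against 31.0% of all genes. With 10 kb there were 8 genes and 14 summits, against 58.6%, with a median highest signal of 122.5. At 10 kb gcm (173.7), Pxn (145.8) and Col4a1 (92.5) were added, and Ppn and He still had none. The highest signal became 350.3 in the gcm2 locus, 284.8 in the vkg locus and 91.8 in the Hml locus. These summits were nearest to the TSS of other genes, CG4382 at 350.3, Rtnl1 at 284.8 (258 bp) and CG8745 at 91.8 (1181 bp). Of the added signals, 145.8 was nearest to MEP-1 (50 bp) and 92.5 to CG44000 (42 bp). The gene nearest to the summit of 173.7 is not given here. Among conservative peaks at or above the median signal, 1 gene and 1 summit were left, both at lz, against 28.5%. Assigning each summit to the nearest protein-coding TSS left 2 genes and 2 summits, against 20.4%. Leaving out each replicate in turn gave from 1 gene and 1 summit (without replicate 2) to 5 genes and 8 summits (without replicate 1), a share of all genes from 28.6% to 40.4%, and a median highest signal from 41.8 to 53.6, on the scale of the replicates' own lists. With promoters of 1000 bp to each side, 4 of the 7 summits were in promoters and 0 in a coding exon. Wider promoters take in more summits of any list, and the shares of all conservative summits at this width are not given here. In windows of 100 bp to each side of the summit, 2 held TGTGGT, against 0 at 50 bp. The share of all conservative windows of that width with TGTGGT is not given here, so the change has no background. The other thresholded list, with 6 genes and 8 summits, and the remaining alternatives moved no count or share by more than 1.5 times. Counts and shares were held to that limit and the median signal to 1 SD between replicates; 35 recomputed values stayed within these limits and 22 did not. The causes were not tested. No paired analysis was possible because the samples form a single group. With 2 replicates and no read counts, the precision of each signal is unknown, and 2 of the 7 peaks were in neither replicate's list.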
